A study of Mus musculus with 7 samples.

Results

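A group of 9 genes often called oncofetal was examined in livers that lack the microRNA miR-122: the RNA-binding protein genes Lin28b, Igf2bp1, Igf2bp2 and Igf2bp3, the chromatin genes Hmga1 and Hmga2, and the cell surface genes Gpc3, Cd44 and Thy1. The members were all probe sets whose platform annotation named exactly 1 of these genes. That rule found 21 of 45101 probe sets, for 7 of the 9 genes (of 18193 genes with a probe set of their own), and the platform annotation used here lists no probe set under Igf2bp2 or Hmga1, which were not analysed here. Total RNA came from frozen livers of mice 2 months old on a B6/129 background. There were 3 wild-type livers and 4 livers without miR-122, with 1 Affymetrix array per animal and no treatment named in the labels. Values are always listed as WT-27, WT-103, WT-104 for wild type, and as KO-03, then KO-90, KO-91, KO-94, for knockout. The labels do not describe the knockout allele, the sex of the animals or whether they were littermates. The comparison asks which of these genes differ in liver when miR-122, the most abundant microRNA of hepatocytes, is absent.

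Oncofetal genes are active in the fetal liver, are low or silent in the healthy adult liver and return in many liver cancers. Lin28b is an RNA-binding protein that blocks the maturation of the let-7 microRNAs. The let-7 family in turn lowers mRNAs that include Hmga2, Igf2bp1 and Lin28b itself. The Igf2bp proteins bind mRNAs such as Igf2, Myc and Cd44. Hmga2 is an architectural protein that binds the minor groove of AT-rich DNA. Gpc3 is a heparan sulfate proteoglycan of the cell surface and a serum and tissue marker of hepatocellular carcinoma. Cd44 is the hyaluronan receptor and Thy1, also called CD90, is a surface glycoprotein of T cells and fibroblasts; both have been used to mark stem-like liver cells.

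Because Lin28b, Hmga2 and Igf2bp1 are tied together through let-7, the mature let-7 sequences are shown, with the seed, bases 2 to 8, in capitals. The RefSeq-derived table of build GRCm38.p6 holds 8 mouse let-7 microRNAs of the 5′ arm, and all 8 share 1 seed. The arrays did not measure mature microRNAs, so these sequences identify the regulator and carry no value here.
let-7a-5p: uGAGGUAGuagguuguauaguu
let-7b-5p: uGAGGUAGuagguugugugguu
let-7c-5p: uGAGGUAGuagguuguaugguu
let-7d-5p: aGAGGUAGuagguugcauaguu
let-7e-5p: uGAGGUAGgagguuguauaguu
let-7f-5p: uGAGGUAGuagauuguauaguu
let-7g-5p: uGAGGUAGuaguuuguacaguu
let-7i-5p: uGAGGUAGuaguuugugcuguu

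The deposited values were log2 expression values normalised across the arrays, with array medians from 4.65 to 4.72. Precision is limited by the small number of arrays. No detection calls were used here. A value was therefore called dim where it was at or under a control level on the same array. That level was the brightest of 27 Bacillus subtilis control probe sets, 4.71 to 5.23. The same control probe set was the brightest on every array, and the median of the 27 was lower, 2.86 to 3.14. Dim values can thus lie above most of these controls. Whether the controls were spiked into these samples is not known. A dim value can still hold some signal. The control level was above the array median on every array, so most probe sets of each array were dim. On the first principal component, which held 46.8% of the variance, WT-27 and WT-103 stood at -52.6 and -46.9, WT-104 and KO-03 were nearly level at -13.8 and -13.2, and the other knockouts stood at 19.6 (KO-91), 41.6 (KO-90) and 65.4 (KO-94). The arrays WT-104 and KO-03 are thus the nearest to the other genotype, and results that rest on them are given with and without them.

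None of the oncofetal members passed the test in the knockout. In limma, 0 of 21 probe sets were higher and 0 were lower at an adjusted p under 0.05, where 1.61% of all 45037 probe sets tested were called, 1.29% higher and 0.32% lower. Those shares are so small that a count of 0 among 21 lies near the background. At an unadjusted p under 0.05, 5 of the 21 (23.8%) were higher and 0 were lower, against 7.80% and 5.51% of all probe sets (13.3% in either direction). Those 5 were 3 of the 4 probe sets of Cd44 and the single probe sets of Thy1 and Gpc3, so all belong to the surface genes. The 3 Cd44 probe sets read the same RNA of the same animals, so the 23.8% is not a share of separate genes. Gpc3 was dim on all arrays. Of the 21 differences, 11 were above 0 and 10 below, with a median of 0.02 on the log2 scale.

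**Figure D1:**
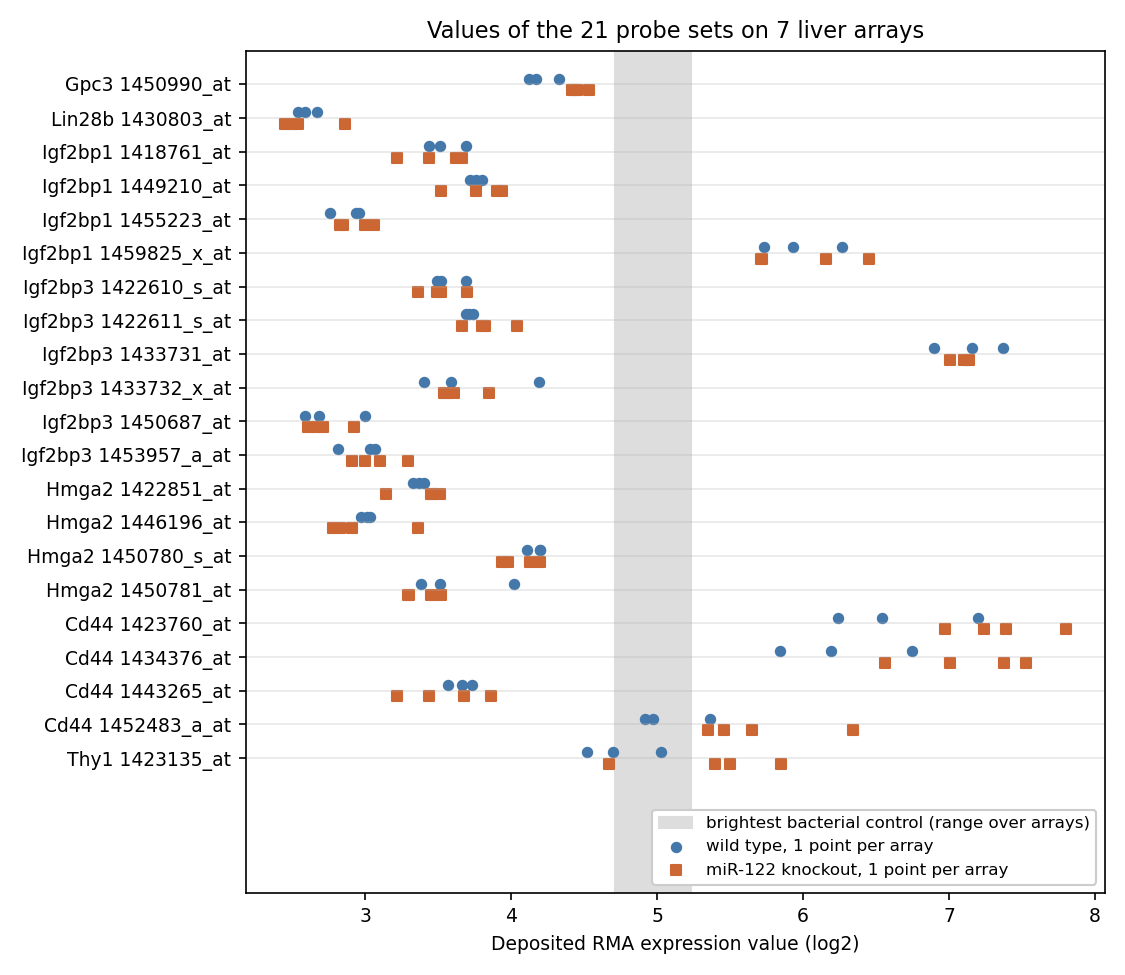
Deposited log2 value of each of the 21 member probe sets (rows) on each array, with circles for the 3 wild-type and squares for the 4 knockout livers; the grey band is the range over arrays, 4.71 to 5.23, of the brightest bacterial control. Values of 15 probe sets lie at or under that control on all 7 arrays, and the 2 groups overlap in every row but that of Gpc3.

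The RNA-binding and chromatin genes showed no difference between genotypes that passed the test. Over 15 probe sets of Lin28b, Igf2bp1, Igf2bp3 and Hmga2, the differences ran from -0.25 to 0.12 on the log2 scale, with 6 above 0 and 9 below. The knockout and wild-type values overlapped in all 15, where 7.25% of all probe sets had every knockout above and 5.53% every knockout below the wild type, and the limma adjusted p lay between 0.575 and 0.974. The lowest and highest bounds of their 95% intervals were -0.61 and 0.51. In 13 of the 15 every array was dim, so for these the intervals describe a signal at or under the control level.

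Lin28b, the let-7 blocker, was read by 1 probe set that was dim on all arrays. Its log2 values were 2.54, 2.59 and 2.67 in wild type, and 2.45, 2.54, 2.49 and 2.86 in knockout. The knockout values lie on both sides of the wild-type values, and KO-94 is the highest of the 7. The difference was -0.02 ± 0.13 (SE), with a 95% interval of -0.30 to 0.27 and a limma adjusted p of 0.974.

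Hmga2, the chromatin gene regulated by let-7, was dim in all 4 of its probe sets, with values from 2.78 to 4.20. The probe set farthest from 0, 1450781_at, read 3.38, 3.51 and 4.02 in wild type, and 3.45, 3.29, 3.30 and 3.52 in knockout. Only WT-104 stood above the knockout range in that probe set. Its difference was -0.25 ± 0.16 (SE; limma adjusted p = 0.575), and without WT-104 it was -0.05. The other 3 probe sets differed by -0.11, -0.03 and 0.02.

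Igf2bp1, a fetal protein that binds Igf2 and Myc mRNA, had 3 dim probe sets and 1 above the control level. The 3 dim ones lay between 2.76 and 3.94 and differed by -0.06 to 0.05. The fourth, 1459825_x_at, read 5.73, 5.93 and 6.27 in wild type, and 5.71, 5.72, 6.16 and 6.45 in knockout. The 2 groups span nearly the same range. Its difference was 0.04 ± 0.21 (SE), with a 95% interval of -0.44 to 0.51 and a limma adjusted p of 0.964. A suffix of _x_at marks a probe set that may also bind other transcripts, so the level cannot be assigned to Igf2bp1 alone.

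Igf2bp3, a paralog found in fetal tissue and many tumours, had 5 dim probe sets and 1 well above the control level. The bright one, 1433731_at, read 6.90, 7.16 and 7.37 in wild type, and 7.10, 7.14, 7.01 and 7.13 in knockout. All 4 knockout values fell inside the wild-type range. Its difference was -0.05 ± 0.13 (SE), with a 95% interval of -0.34 to 0.24 (0.792-fold to 1.18-fold) and a limma adjusted p of 0.913. The 5 dim probe sets lay between 2.59 and 4.19 and differed by -0.08 to 0.12. One of these, 1433732_x_at, carries the same source accession in the platform annotation as the bright probe set and was dim on all 7 arrays, so the probe sets listed under Igf2bp3 disagree on whether the transcript is above the control level.

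**Figure D2:**
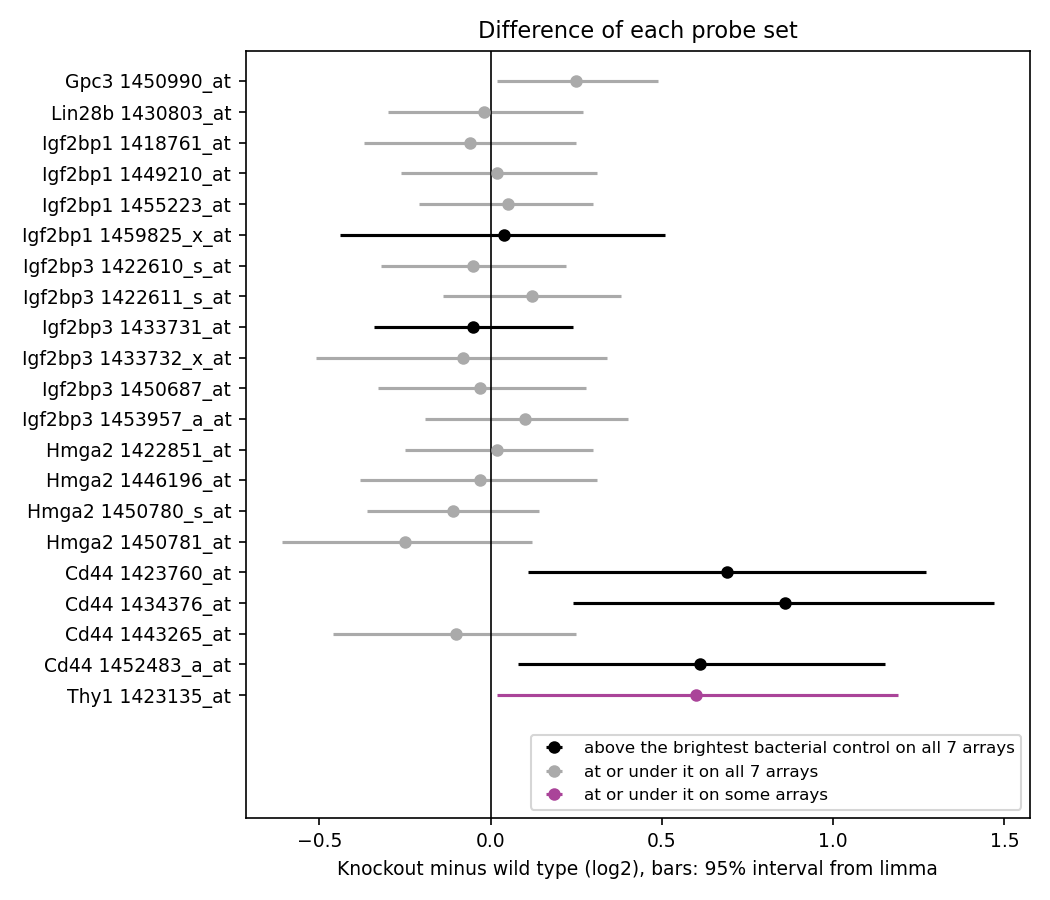
Knockout minus wild-type difference of each member probe set on the log2 scale, with bars for the 95% interval from limma; black, grey and purple mark probe sets above the brightest bacterial control on all arrays, at or under it on all arrays, or at or under it on some. Intervals of the 15 RNA-binding and chromatin probe sets include 0, and those of 3 Cd44 probe sets, Thy1 and Gpc3 lie above 0 before adjustment for the 45037 tests.

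The surface genes were higher on average in the knockout without passing the adjusted test, and Cd44 had the largest differences. In the 3 Cd44 probe sets above the control level, knockout livers averaged 1.53-fold to 1.81-fold the wild type. Thy1 averaged 1.52-fold and Gpc3 1.19-fold. The lowest limma adjusted p among them was 0.201.

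The Cd44 probe set 1434376_at read 5.84, 6.19 and 6.75 in wild type. It read 6.56, 7.38, 7.01 and 7.53 in knockout. KO-90, KO-91 and KO-94 lie above every wild type, and KO-03 lies below WT-104. The difference was 0.86 ± 0.27 (SE), with a 95% interval of 0.24 to 1.47 and a limma adjusted p of 0.201.

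The Cd44 probe set 1423760_at read 6.24, 6.54 and 7.20 in wild type, and 6.97, 7.39, 7.24 and 7.80 in knockout. Its difference was 0.69 ± 0.25 (SE; 95% interval 0.11 to 1.27, limma adjusted p = 0.280). The third bright probe set, 1452483_a_at, read 4.97, 4.92 and 5.36 in wild type and 5.35, 6.34, 5.46 and 5.65 in knockout, with a difference of 0.61 ± 0.24 (SE; 95% interval 0.08 to 1.15, limma adjusted p = 0.302). Its wild-type values were near the control level, closest in WT-103 at 4.92 against 4.90. In all 3 probe sets KO-03 was below WT-104 and the other knockouts were above every wild type. The 3 probe sets read the same RNA of the same animals and are not separate evidence. The remaining probe set, 1443265_at, was dim on all arrays and differed by -0.10 ± 0.16 (SE; limma adjusted p = 0.826).

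Thy1, the fibroblast and T cell surface protein, was read by 1 probe set, 1423135_at. Its values were 4.52, 4.70 and 5.03 in wild type, all dim, and 4.67, 5.40, 5.50 and 5.85 in knockout, of which KO-03 was dim. KO-03 fell inside the wild-type range and the other 3 knockouts lay above it. The measured difference was 0.60 ± 0.26 (SE; 95% interval 0.02 to 1.19, limma adjusted p = 0.355). With the dim wild-type values raised to the control level and the dim KO-03 value kept as measured, the difference is 0.45.

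Gpc3, the glypican marker of liver cancer, was the only member whose groups did not overlap. Its values were 4.17, 4.12 and 4.33 in wild type, and 4.45, 4.42, 4.43 and 4.53 in knockout. Every knockout value is higher than every wild-type value, as in 7.25% of all probe sets, but all 7 values were dim and the gap between the groups was small. The difference was 0.25 ± 0.10 (SE), with a 95% interval of 0.02 to 0.49 and a limma adjusted p of 0.330.

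The values of Cd44 and Thy1 moved in both directions as single arrays were left out. With 1 array left out, the difference ran from 0.65 (without WT-27) to 1.10 (without WT-104) for Cd44 1434376_at and from 0.48 to 0.96 for 1423760_at without the same arrays. For 1452483_a_at it ran from 0.40 without KO-90, the array with its highest value, to 0.75 without WT-104. For Thy1 it ran from 0.44 without KO-94 to 0.83 without KO-03. The limma adjusted p was highest without WT-103 for each of them, at 0.50 for 1434376_at, 0.626 for 1423760_at, 0.667 for 1452483_a_at and 0.677 for Thy1. Without KO-03, Thy1 differed by 0.83 and passed (limma adjusted p = 0.0459), and the Cd44 probe set 1434376_at differed by 1.04 and did not (0.0606). Without WT-104 the Cd44 probe sets 1434376_at and 1423760_at differed by 1.10 and 0.96 and did not pass (limma adjusted p = 0.126 and 0.118). With both arrays left out, 3 of the 21 probe sets passed: Cd44 1434376_at at 1.29, Cd44 1423760_at at 1.09 and Thy1 at 0.97 (limma adjusted p = 0.0179, 0.0301 and 0.0278). That choice was made after the data were seen, and it removes the lowest knockout and the highest wild type of these probe sets, which widens the difference by construction. Without any single wild-type array, or without KO-90, KO-91 or KO-94, 0 of the 21 passed.

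**Figure D3:**
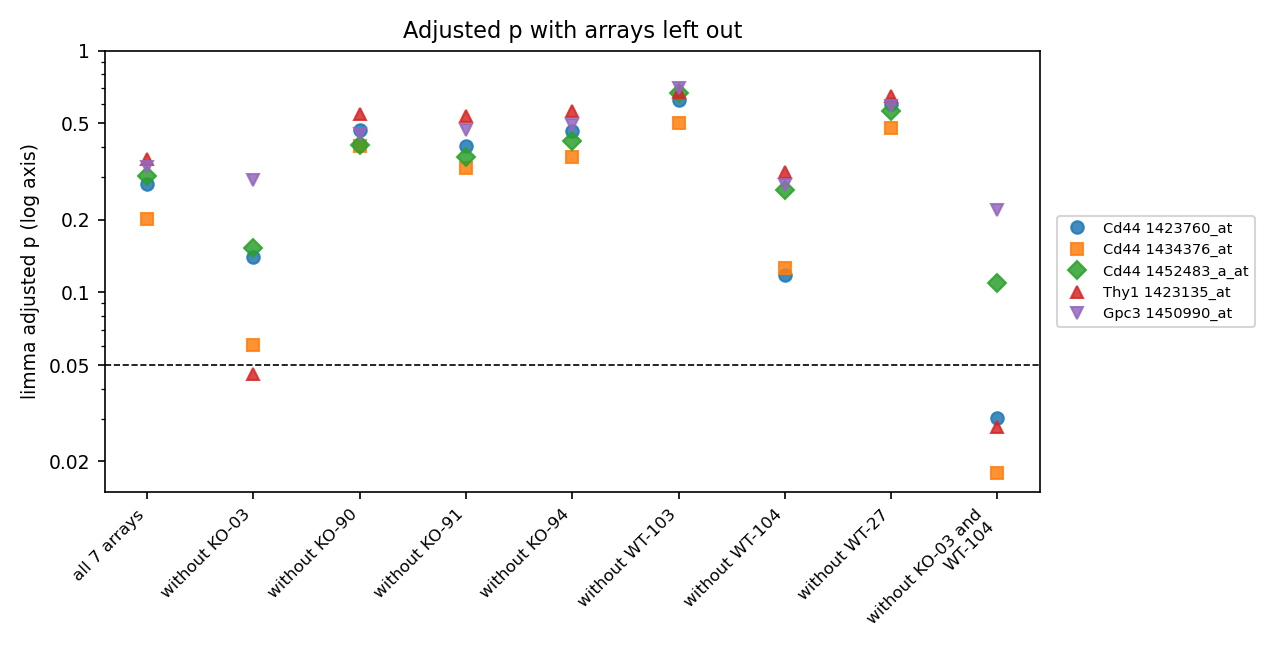
Adjusted p from limma (log axis) of the Cd44, Thy1 and Gpc3 probe sets with all 7 arrays, with each array left out, and with WT-104 and KO-03 both left out; the dashed line is 0.05. Points under the line are Thy1 without KO-03 (0.0459), and Thy1 and 2 Cd44 probe sets without both arrays.

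Markers of other cells were measured beside Cd44 and Thy1, since in bulk liver a change in the number of cells of a type and a change in RNA per cell cannot be told apart. Hepatocyte markers were bright, with 0 of 7 genes dim. Their list mean was 13.24 to 13.38 in wild type and 13.40 to 13.48 in knockout, higher in each knockout than in each wild type. The median difference was -0.01, and 3 of the 7 differences were above 0, with Tat farthest from 0 at 0.90. Of 6 general leukocyte markers, genes of white blood cells that carry Cd44, 0 were called in either direction and all 6 differences were above 0, with a median of 0.57. Their mean was 7.46, 7.82 and 8.04 in wild type, and 8.20, 8.57, 8.39 and 8.67 in knockout. WT-104 was the highest wild type and KO-03 the lowest knockout, as for Cd44, but here KO-03 lay above WT-104 and for Cd44 below it. That order is not particular to leukocytes. The hepatocyte, T cell, macrophage, stellate cell, cholangiocyte and cell cycle means also had WT-104 as highest wild type and KO-03 as lowest knockout. Among the 6 general leukocyte markers the smallest p-value was that of Coro1a, an actin-binding protein of leukocytes, which differed by 1.22 (limma adjusted p = 0.0876). Next was the lysosomal protein Laptm5, which differed by 0.58 (limma adjusted p = 0.140). None of these 6 leukocyte markers was dim on all arrays, and their part in the Cd44 result was not tested.

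Of 8 macrophage markers 0 were called, with a median of 0.39 and list means of 8.34 to 8.87 in wild type and 8.77 to 9.33 in knockout. The smallest p-values were those of the scavenger receptor Marco at 0.89 (limma adjusted p = 0.103) and the complement gene C1qb at 0.66 (0.219). Of 7 T cell markers 0 were called, with a median of 0.05 and list means of 4.50 to 4.83 in wild type and 4.68 to 4.93 in knockout. Cd3g, a defining component of the T cell receptor, and the adhesion gene Cd2 were dim on all arrays, while Cd3e, another component, was above the control level and differed by 0.01 (limma adjusted p = 0.985). Cd2 differed by 0.37 (limma adjusted p = 0.186) and Cd3d, whose wild-type values were all dim, by 0.36 (0.547). With those wild-type values raised to the control level and its dim knockout values kept as measured, Cd3d differed by 0.06.

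Markers of stellate cells and portal fibroblasts, the mesenchymal cells that can carry Thy1, moved more. Of 12 measured genes 6 rose, 0 fell and 6 did not pass. Of the 18193 genes 2.39% were called, 1.87% higher and 0.511% lower. The list median was 0.99 against 0.01 over all genes. Like the other lists, these markers were chosen with earlier results of these data known and are no independent evidence of direction. Their list mean was 7.04 to 7.23 in wild type and 7.81 to 8.45 in knockout, with KO-03 lowest of the knockouts, as for Thy1, yet above every wild type. Pdgfra, a receptor of mesenchymal cells, rose by 1.41, the proteoglycan Lum by 1.69, the collagen Col1a1 by 2.13 and the receptor Pdgfrb by 1.03 (limma adjusted p = 0.00338, 0.00622, 0.00901 and 0.0135). The count fell to 2 without WT-103 and to 3 without WT-27 or KO-91. Of the 12 differences 11 were above 0, while the stellate cell marker Lrat differed by -0.13 (limma adjusted p = 0.859). None of these 12 markers was dim on all arrays. Among 6 markers of cholangiocytes, the bile duct lining, Tspan8, Epcam and Krt19 rose and 0 fell, with list means of 4.01 to 4.29 in wild type and 4.82 to 5.95 in knockout; that count was 0 without WT-103 and 1 without WT-27, KO-90 or KO-91. The part of these cells in the Thy1 result was not tested.

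**Figure D4:**
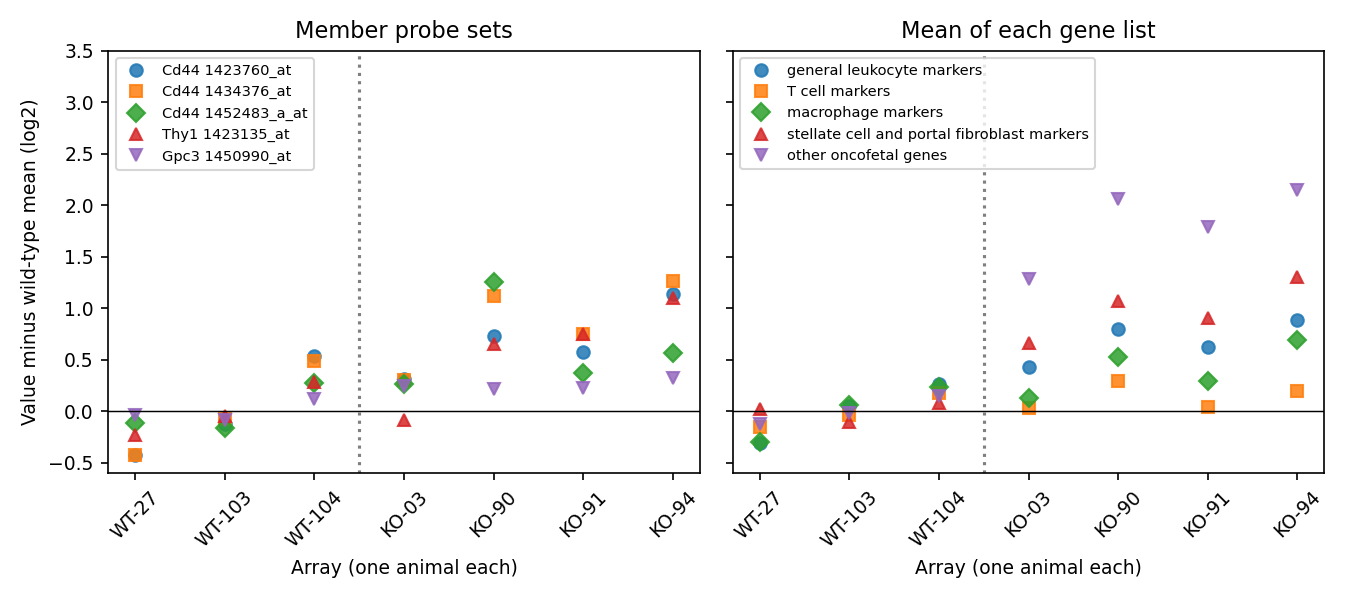
Left, the 3 bright Cd44 probe sets, Thy1 and Gpc3 on each array as the log2 value minus the wild-type mean; right, the mean of 5 gene lists on the same scale. WT-104 is the highest wild type for all 5 probe sets, and KO-03 lies below it for Cd44 and Thy1. KO-03 lies above every wild type for the general leukocyte, stellate cell and other oncofetal lists. It lies below WT-104 for the T cell and macrophage lists.

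Endothelial, erythroid and cell cycle markers had 0 calls among 8, 5 and 7 genes, with medians of 0.11, -0.03 and 0.20. Vwf, an endothelial clotting factor, differed by 0.63, and Lyve1, a hyaluronan receptor of sinusoids related to Cd44, by -0.66 (limma adjusted p = 0.265 and 0.295). The globin Hba-a1 and the red cell membrane gene Epb42 were dim and differed by -0.25 and -0.17 (limma adjusted p = 0.429 and 0.628). Pcna, a replication clamp, differed by 0.41 and Top2a, which was dim, by -0.39 (limma adjusted p = 0.220 and 0.276). Of the hepatocyte markers 0 of 7 were called, with Tat, a tyrosine-degrading enzyme, at 0.90 and the transcription factor Hnf4a at 0.30 (limma adjusted p = 0.0855 and 0.403).

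Other oncofetal genes included large changes in the same livers; the difference between them and the members was not tested. Of 10 measured genes 6 rose and 0 fell (60.0%, against 1.87% and 0.511% of all genes), with a list median of 2.23. This list was written with earlier results of these data known and is no independent evidence of its direction. Igf2, a fetal growth factor whose mRNA the Igf2bp proteins bind, read 6.61, 6.53 and 6.20 in wild type, and 10.27, 12.13, 11.23 and 13.36 in knockout. Afp, the fetal serum protein, read 5.34, 5.66 and 5.57 in wild type and 7.77, 7.79, 7.39 and 8.26 in knockout. In KO-03, where Cd44 and Thy1 were below WT-104, Igf2 and Afp were above every wild type. Afp rose by 2.28 (limma adjusted p = 0.0015). Sox4, a fetal transcription factor, and Cd24a, a surface protein, rose by 3.03 and 2.84 (0.00127 and 0.00439), and Epcam and Prom1 were also called. Epcam is also among the cholangiocyte markers above, so the counts of these lists share it and are not separate. H19 was not measured, and the genes Dlk1, Mest, Plag1 and Sall4 differed by 0.07, -0.07, 0.06 and 0.02 without passing. Of these, Dlk1, Plag1 and Sall4 were dim on all arrays.

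Genes of the let-7 pathway did not pass. Of 8 genes grouped here as factors of let-7 processing, regulation and decay, 0 were called, and 1 had an unadjusted p under 0.05 in limma. Of the 8, 2 were dim on all arrays. The list median was 0.17, with the uridylyl transferase Tut4 at 0.48 and the nuclease Drosha at 0.45 (limma adjusted p = 0.323 and 0.436). Of 15 further let-7 target genes 0 were called, 2 were higher and 2 lower at an unadjusted p under 0.05, and the list median was 0.05. The cyclin Ccnd2 read 6.35, 6.65 and 6.93 in wild type and 7.07, 7.35, 7.34 and 7.22 in knockout. Its groups did not overlap, and its difference of 0.60 did not pass (limma adjusted p = 0.104). The nuclear receptor Nr6a1 differed by -0.60 (limma adjusted p = 0.229).

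Among 6 client mRNAs of the Igf2bp proteins outside the members, Igf2 rose by 5.30 (limma adjusted p = 0.00456), 0 fell and 5 did not pass, with a list median of 0.04. The second by p was the Hedgehog effector Gli1, which was dim, at -0.24 (limma adjusted p = 0.466). Of 6 high mobility group genes outside the Hmga pair 0 were called, with a median of -0.08. The smallest p-values were those of the nucleosome-binding protein Hmgn3 at 0.66 and the DNA-binding protein Hmgb3 at -0.45 (limma adjusted p = 0.141 and 0.370). With the dim wild-type values of Hmgn3 raised to the control level and its dim knockout values kept as measured, its difference was 0.30.

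Partners of the surface genes were measured as well. Of 15 other glypicans and Hedgehog genes, the pathway that Gpc3 restrains, 0 were called and the median was -0.02, with list means of 5.49 to 5.64 in wild type and 5.54 to 5.68 in knockout. The ligand Ihh differed by 0.71 and the ligand-trapping protein Hhip by 0.30 (limma adjusted p = 0.260 and 0.339). Of 13 ligands and partners of Cd44 0 were called, with a median of 0.06. Cd74, which pairs with Cd44 as a cytokine receptor, read 9.23, 8.43 and 10.05 in wild type and 10.13, 11.07, 10.28 and 11.15 in knockout. It differed by 1.42 and did not pass (limma adjusted p = 0.140), and the receptor kinase Met differed by 0.38 (0.254). Of 8 integrins and other binding partners of Thy1 0 were called, all 8 differences were above 0 and the median was 0.38. Itgb2, an integrin chain of leukocytes, differed by 0.92, and Itgax, dim in wild type, by 0.72 or at least 0.63 (limma adjusted p = 0.185 and 0.320).

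**Figure D5:**
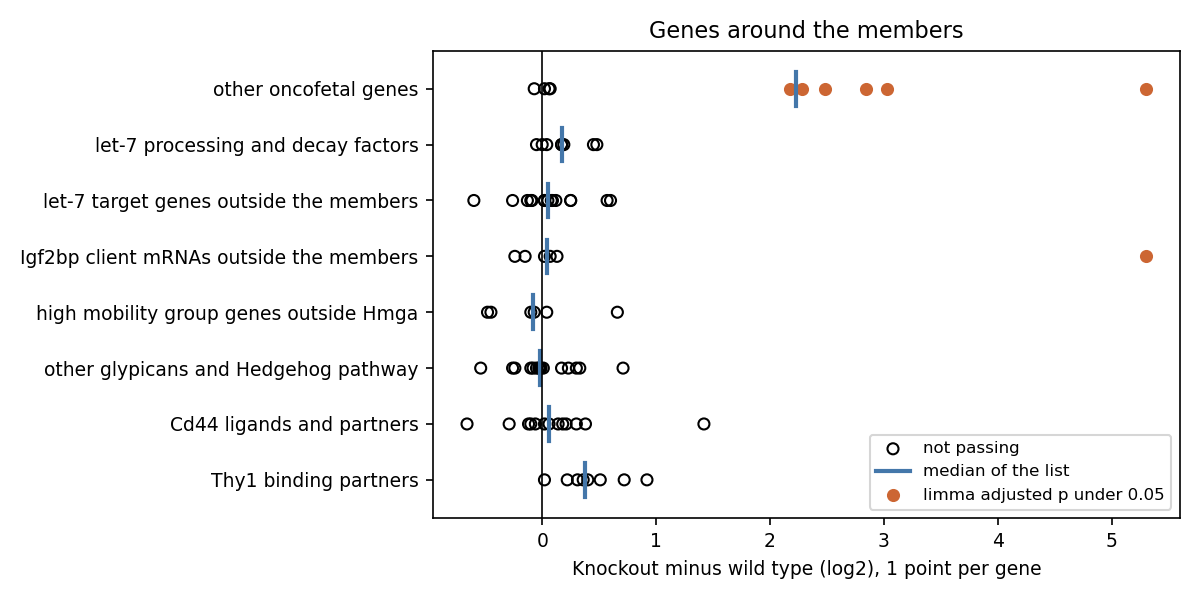
Knockout minus wild-type difference (log2) of each gene in 8 lists around the members, with 1 point per gene, filled where the limma adjusted p was under 0.05 and with a bar at the list median. Filled points are in the other oncofetal list (6 of 10 genes) and for Igf2, which is also in the list of Igf2bp client mRNAs; the other 6 lists have none.

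No member passed, so the rule for naming genes of like pattern, which starts from a called member, named none. For Cd44 and Thy1 the 3 nearest genes were listed after their values were seen, by the root mean square difference over the 7 arrays after each gene's wild-type mean was subtracted. Nearest to Cd44 1423760_at were the actin regulator Pfn2, the junction protein Jam2 and the lactate dehydrogenase chain Ldhb, at 0.08, 0.11 and 0.12 on the log2 scale. Ldhb was dim on all 7 arrays, so its likeness rests on values at or under the control level. Nearest to Thy1 were the DNA repair enzyme Smug1, the transporter Slco3a1 and the apoptosis gene Bad, at 0.05, 0.09 and 0.09. None of these 6 passed the adjusted test, and their differences ran from 0.57 for Bad to 0.79 for Jam2.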

How the data were processed

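Biotin-labelled cRNA from the livers of 3 wild-type and 4 miR-122 knockout mice was measured on Affymetrix arrays, per the labels' protocols. The authors deposited log2 values; RMA and Partek are the tools that the submitters' processing notes name. RMA subtracts background, applies quantile normalization and combines the probes of a set, which narrows differences near background. Neither versions nor a genome build were given in the sources used here, so no coordinates are printed. The 7 arrays held 0 missing values and 0 identical pairs. Arrays give no read depth. The labels call the samples separate animals, and p-values are set against the spread between them.

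Platform annotation gave 1 symbol for 34945 of the 45037 probe sets that are not controls, several for 932 and none for 9160; RefSeq gene names changed 0 symbols. Knockout and wild type were compared over all 45037 with limma 3.58.1 in R 4.3.3 (lmFit, eBayes, two-sided, no covariates, 5 residual and 3.80 prior degrees of freedom), with Benjamini-Hochberg adjustment and a threshold of 0.05. List genes were read by their probe set of highest mean. The members, the 17 gene lists (162 entries, 15 not measured) and the tests were chosen with earlier results of these data known. Named are all member probe sets and, in each list, up to 4 called genes or, with fewer than 2 called, the 2 with the smallest p. Cd3g, Cd3e, Dlk1, Mest, Plag1, Sall4, Lrat and the genes of like pattern were added after their values were seen. The script was tested on simulated data. Alternatives were array weights, a robust or a trended prior, median centring, renewed quantile normalization, filters on dim probe sets, 1 probe set or the mean per gene, no _x_at or _s_at probe sets, stricter thresholds and leaving out arrays. Python 3.11.15, pandas 2.3.3 and matplotlib 3.10.9 were also used.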

Additional observations from a re-analysis of the deposited data

Results flagged for a closer look

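Among 38 knockout groups checked (21 member probe sets and 17 list means), 3 had 1 animal far from the other 3 for its group's range, where chance gives about 1 in 20. The dim Hmga2 probe set 1422851_at read 3.14 in KO-03, below the other knockouts at 3.51, 3.45 and 3.46. The mean of the high mobility group genes was 7.43 in KO-91, against 7.14 to 7.16 in the other knockouts. The mean of the Cd44 ligands and partners was 6.81 in KO-94, against 6.67 to 6.69 in the others.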

How the results depend on the processing

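Signal over background limits these results, since 15 of the 21 probe sets were dim on all arrays. Most probe sets of each array were dim, and the share dim on all arrays was not computed over all probe sets. No paired analysis was possible because the animal numbers do not recur between genotypes. Member calls were 0 higher and 0 lower under every alternative run but 2: with 1 array left out, 0 to 1 were higher (Thy1 without KO-03), and with WT-104 and KO-03 both left out 3 were higher, a setting chosen after seeing the data.

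Over all probe sets, where 582 were higher and 144 lower, leaving out 1 array gave 172 to 1112 higher and 38 to 268 lower, in each case with the fewest without WT-103 and the most without KO-03. With WT-104 and KO-03 both left out the counts were 1231 and 709, with array weights 1177 and 407, at an adjusted p under 0.01 163 and 21, and with a fold of at least 2 added 363 and 68. With a group mean of at least 6, 242 were lower. The cause was not tested, except that the stricter thresholds and the filter change what can be called.

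List counts with 1 array left out ranged from 4 to 6 higher for the other oncofetal genes and from 2 to 8 for stellate cells. The range was 0 to 3 higher for cholangiocytes and 0 to 2 for leukocytes. It was 0 to 1 higher for the high mobility group, glypican and Hedgehog, hepatocyte and macrophage lists. The Cd44 partner and endothelial lists had 0 to 1 lower. With WT-104 and KO-03 both left out the let-7 target, high mobility group, glypican and Hedgehog, Cd44 partner, Thy1 partner, hepatocyte and macrophage lists had 1 higher each and the leukocyte list 2.

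The sign turned only in differences near 0 that passed in no fit. With 1 array left out, Lin28b ran from -0.11 to 0.03. For Igf2bp1, 1418761_at ran from -0.12 to 0.03, 1449210_at from -0.03 to 0.11, 1455223_at from -0.01 to 0.08 and 1459825_x_at from -0.11 to 0.18. For Igf2bp3, 1422610_s_at ran from -0.11 to 0.02, 1433731_at from -0.17 to 0.07, 1433732_x_at from -0.25 to 0.15 and 1450687_at from -0.11 to 0.10. For Hmga2, 1422851_at ran from -0.02 to 0.11 and 1446196_at from -0.16 to 0.03, and Cd44 1443265_at from -0.21 to 0.00. With WT-104 and KO-03 both left out, Lin28b was 0.06, Igf2bp1 1455223_at -0.04, Igf2bp3 1433731_at, 1433732_x_at and 1450687_at 0.06, 0.18 and 0.13, and Hmga2 1446196_at 0.04. Igf2bp1 1459825_x_at was -0.02 with renewed quantile normalization, and the mean of all Igf2bp3 probe sets was 0.00.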
